A study of Mus musculus with 19 samples.

Results

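The genes described here are 46 genes of monocytes and macrophages, covering cell identity, resident and recruited subsets, engulfment of dying cells, Fc receptors, polarization, the NADPH oxidase and costimulation. They were taken from the count table by symbol from a fixed list of names. All 46 were found, with 1 row each, among 54532 genes. Each had at least 1 count in at least 1 kidney, as did 33651 genes of the whole table.

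RNA was sequenced from whole obstructed kidneys of 19 male C57BL/6J mice, 8 to 9 weeks old, in which the left ureter had been ligated (unilateral ureteral obstruction, UUO). The mice were wild type (WT) or lacked CD5L, a protein that macrophages secrete (CD5L KO). They received daily intraperitoneal injections of PBS or of recombinant mouse CD5L made in CHO-S cells (rCD5L, 0.5 mg per mouse), and the kidneys were taken on day 12 after heparin perfusion. There were 5 WT kidneys given PBS, 5 WT kidneys given rCD5L, 4 CD5L KO kidneys given PBS and 5 CD5L KO kidneys given rCD5L. All groups had the obstruction, and no unobstructed kidney was analysed here. How the deletion was made is not given in the sources used here.

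Kidney macrophages come from resident cells seeded early in life and from blood monocytes that enter the injured tissue. Csf1, made by tubular and other cells, keeps them alive through the receptor Csf1r. Incoming Ly6C-high monocytes carry Ly6c2 and Plac8, whereas settled macrophages carry receptors such as Mertk, Axl and Mrc1. Macrophages that clear apoptotic cells do so through Mertk and Axl, which bind the bridging ligand Gas6, and macrophages exposed to IL-4 or IL-13 make Chil3, Retnla and Arg1. The samples are bulk tissue, so fewer cells of a type and less RNA per cell cannot be told apart.

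Total counts per kidney ranged from 17917491 to 23847090. Levels are given as CPM (counts scaled to library size with TMM factors) within a gene, and as FPKM, the authors' values per length, between genes. Cd5l had 0 counts in all 9 CD5L KO kidneys, which allows up to 3 counts, and 3 to 15 counts in the 10 WT kidneys. Markers of macrophages and of kidney tubule were present in all 19 kidneys. Macrophage genes (Adgre1, Cd68, Csf1r, C1qa, C1qb, C1qc, Fcgr1 and Mertk) summed to between 559 and 1688 CPM in the 19 kidneys, and 10 proximal tubule markers to between 1099 and 15752 CPM.

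One kidney stood apart. In CD5L KO kidneys given rCD5L, replicate 4 lay below all 4 other kidneys of its group for 39 of the 44 genes with enough counts for a test, with a median ratio to their median of 0.337. It was the lowest of all 19 kidneys for 37 of them, and its median deviation from the mean of the 19 kidneys was -1.38 on the log2 scale, against -0.11 over all genes. Among the rest, Mertk was above all 4, and Fcgr2b, Chil3, Gas6 and Cyba lay between. In this kidney the 10 proximal tubule markers summed to 15752 CPM, against at most 2655 CPM in any other kidney, and the 8 macrophage genes to 559 CPM. The low values were not particular to myeloid genes. Marker sums of T cells (18.5 CPM), B and plasma cells (41.6 CPM), dendritic cells (45.1 CPM) and neutrophils (9.31 CPM) were the lowest of the 19 kidneys here. So were those of fibroblasts and myofibroblasts (806 CPM), lymphatic endothelium (51.7 CPM) and injured tubule (12316 CPM). Replicate 3 of the same group was the highest of the 19 kidneys for 10 genes and the lowest for 2. The part of either kidney in the results was not tested, and values without both are given beside the results of their group.

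**Figure D1:**
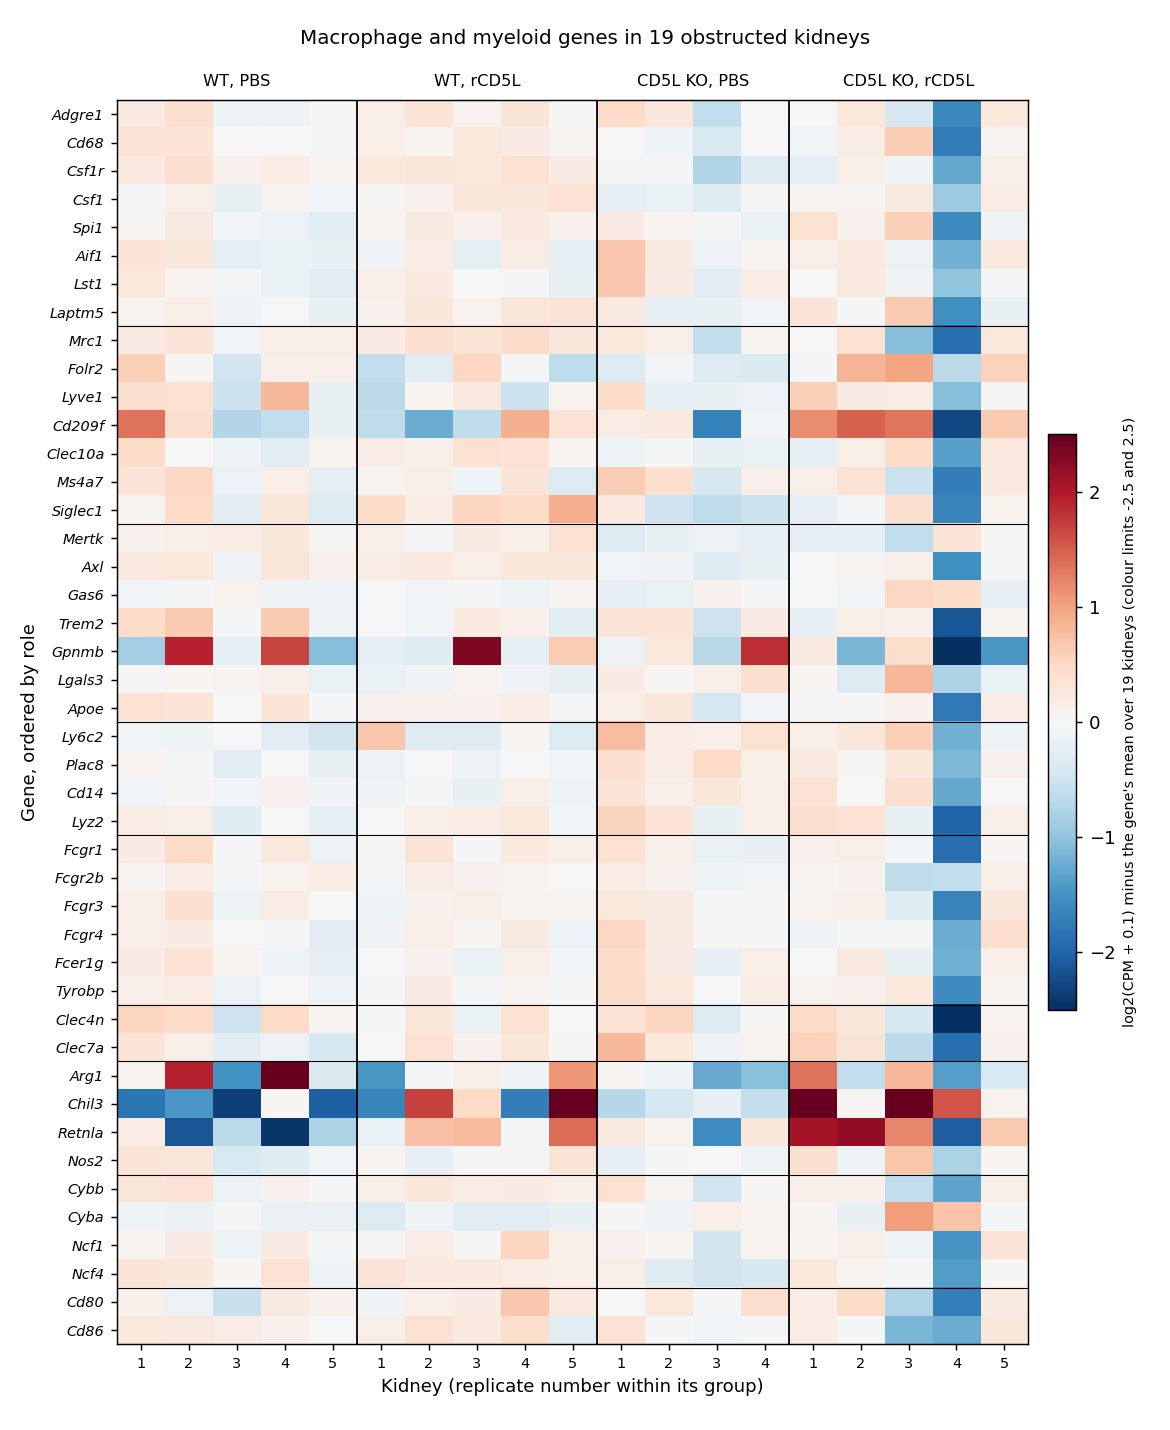
Heat map of 44 macrophage and myeloid genes (rows, ordered by role) in 19 kidneys (columns, grouped by genotype and injection). Colour is log2(CPM + 0.1) minus the mean of the gene over the 19 kidneys, red above and blue below. Replicate 4 of the CD5L KO kidneys given rCD5L was the lowest kidney for 37 genes.

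By level per length, Apoe, a lipid carrier of macrophages and other cells, was the highest of the 46 genes, with a mean of 1023 FPKM over the 19 kidneys. The lysozyme gene Lyz2 followed with 644 FPKM, then Cyba, the p22phox chain of the NADPH oxidase, with 252 FPKM, and the ligand Gas6 with 132 FPKM. The adaptor genes Tyrobp and Fcer1g had means of 101 and 82.5 FPKM. At the other end, Folr2 had a mean of 0.694 FPKM, the costimulatory gene Cd80 0.553 FPKM, and Cd209f, Timd4 and Vsig4 0.209, 0.0806 and 0.0662 FPKM. All of these but Cd80 belong to the resident and perivascular group. The others of that group were higher: Mrc1, Ms4a7, Clec10a, Siglec1 and Lyve1 had 16.9, 6.62, 3.76, 1.89 and 0.885 FPKM. Timd4, a receptor for phosphatidylserine on long-lived resident macrophages, had at most 0.513 CPM in any kidney, and Vsig4, a complement receptor of resident macrophages, at most 0.519 CPM. Timd4 and Vsig4 passed the filter on low counts in no comparison, and Cd209f only in those with CD5L KO kidneys given rCD5L. The lowest and highest kidneys for Apoe were 742 and 3355 CPM.

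The first comparison was CD5L KO against WT, both given PBS, which asks how myeloid RNA in the obstructed kidney differs without CD5L. Of 43 genes tested, 6 passed an adjusted p under 0.05 with edgeR's quasi-likelihood test, with Plac8, Ly6c2 and Cd14 higher and Mertk, Axl and Csf1r lower. Across all genes tested, 1850 of 17579 passed, or 10.5%, with 5.13% higher and 5.4% lower. At an unadjusted p under 0.05 there were 12 of the 43, 6 higher and 6 lower, against 26.6% of all genes (12.6% higher and 14% lower). The changes were between 1.17-fold and 1.49-fold. The 8 macrophage genes above summed to 1073 to 1649 CPM in CD5L KO and 1316 to 1688 CPM in WT kidneys. The median log2 fold change of the 43 genes was -0.07, against -0.005 over all genes, and 17 were above 0 and 26 below (49.3% and 50.7% of all genes). Without CD5L KO replicate 3 this median was 0.02, and it was below 0 without any other kidney, with a lowest value of -0.13.

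**Figure D2:**
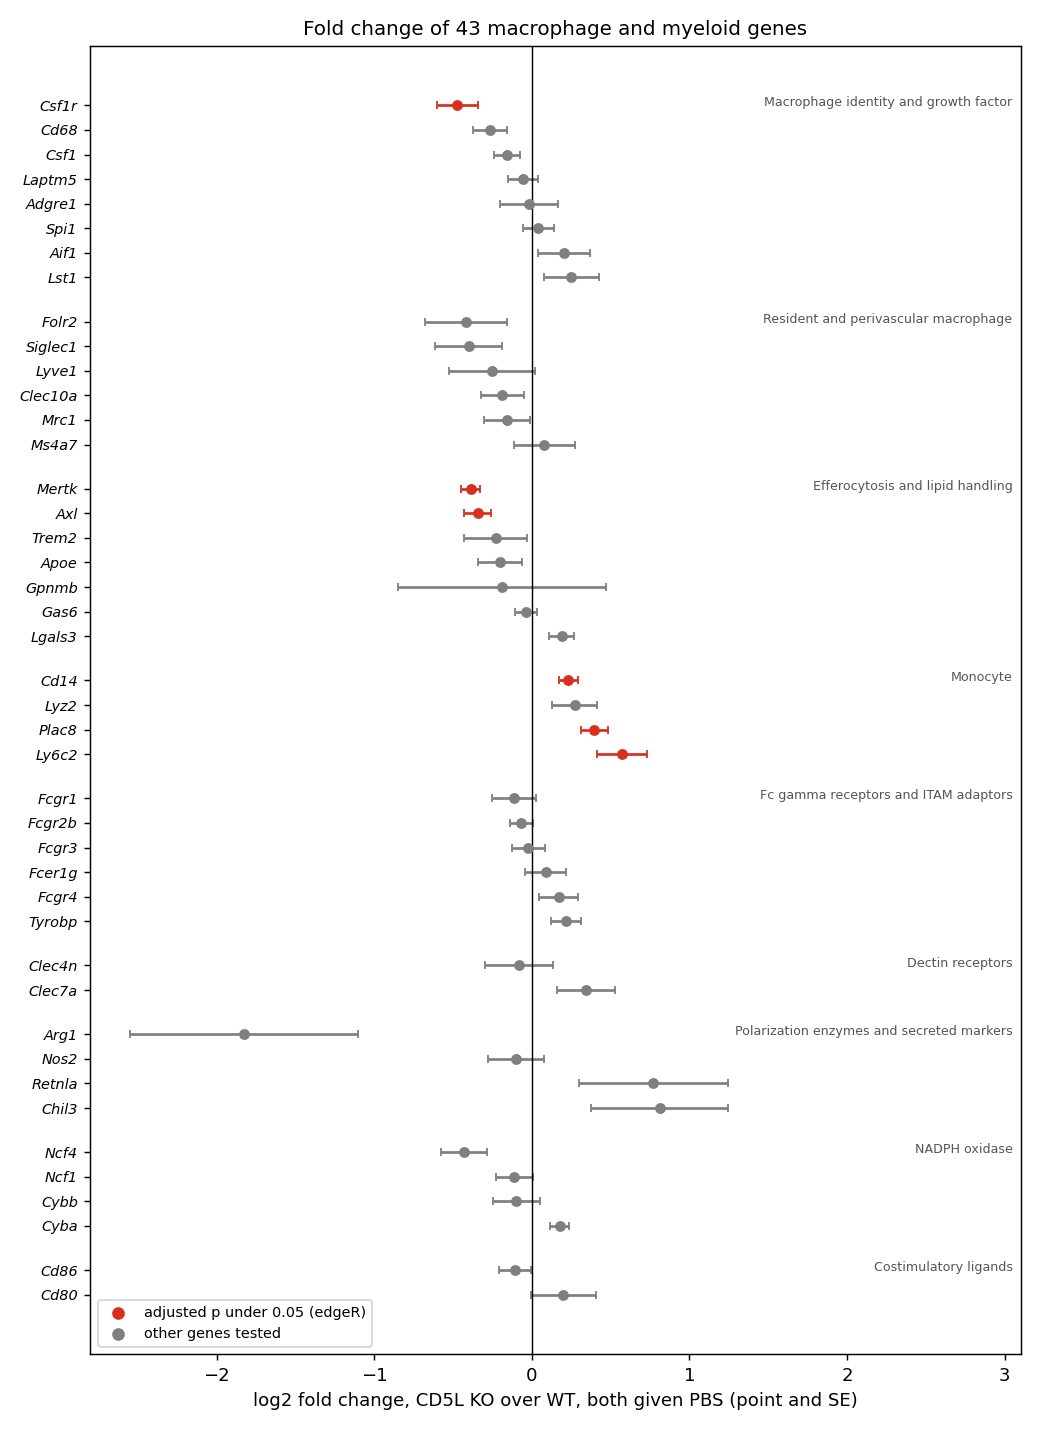
Log2 fold change of 43 macrophage and myeloid genes in CD5L KO over WT kidneys, both given PBS (horizontal axis; points with SE from edgeR), with genes grouped by role. Red marks the 6 genes with an adjusted p under 0.05: Csf1r, Mertk and Axl to the left of 0, and Cd14, Plac8 and Ly6c2 to the right.

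Mertk encodes a receptor tyrosine kinase with which macrophages take up apoptotic cells, and podocytes and other kidney cells can make it too. The study's own marker table lists it for podocytes. The 5 WT kidneys given PBS had 55.4, 58.2, 58.5, 62.8 and 53.1 CPM, and the 4 CD5L KO kidneys given PBS had 40.6, 45.6, 46.6 and 43.99 CPM. All 4 CD5L KO kidneys lay below all 5 WT kidneys. Its log2 fold change was -0.39 ± 0.063 (SE, adjusted p = 0.00575, edgeR), the smallest p among the 43 genes. Axl, the second receptor of this family, had 353, 357, 281, 369 and 322 CPM in WT kidneys and 283, 281, 238 and 263 CPM in CD5L KO kidneys. WT replicate 3 lay within the CD5L KO range, and 2 of 4 CD5L KO kidneys lay below all WT kidneys. On the log2 scale, the difference was -0.34 ± 0.085 (adjusted p = 0.0259, edgeR). Gas6, the ligand of both, had 386 ± 37.4 CPM (SD, n = 4) against 395 ± 21.5 CPM (SD, n = 5), and its adjusted p was 0.783 (edgeR). The 8 markers of fibroblasts and myofibroblasts summed to 1542 to 2190 CPM in CD5L KO and 2027 to 2970 CPM in WT kidneys. Their part in the value of Axl was not tested.

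Csf1r, the receptor that maintains monocytes and macrophages, had 309, 348, 283, 296 and 275 CPM in WT and 257, 254, 154 and 208 CPM in CD5L KO kidneys. All 4 CD5L KO kidneys were below all 5 WT kidneys, and replicate 3 was the lowest. In log2 terms this was a change of -0.47 ± 0.13 (adjusted p = 0.0386, edgeR). An exon of Csf1r overlaps Hmgxb3 on the other strand, and the strand setting of the counting is not given, so reads of these 2 genes may not be separated. Its ligand gene Csf1 had 58.3 ± 5.97 CPM (SD, n = 4) and 64.6 ± 5.77 CPM (SD, n = 5), with an adjusted p of 0.244 (edgeR). The other macrophage identity genes did not pass: Adgre1, which encodes F4/80, had 105 ± 31.6 CPM in CD5L KO (SD, n = 4) and 106 ± 17.9 CPM in WT kidneys (SD, n = 5). Spi1, which encodes the myeloid transcription factor PU.1, had 39.1 ± 4.15 and 37.9 ± 4.94 CPM. Cd68, a lysosomal glycoprotein of macrophages, had a log2 fold change of -0.27 ± 0.11 (adjusted p = 0.133, edgeR), and Aif1, Lst1 and Laptm5 had adjusted p-values of 0.478, 0.384 and 0.757.

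Plac8, a small cysteine-rich protein of Ly6C-high monocytes and other immune cells, had 111, 106, 89.3, 107 and 94.8 CPM in WT kidneys and 143, 123, 151 and 119 CPM in CD5L KO kidneys. All 4 CD5L KO kidneys were above all 5 WT kidneys. The fitted log2 difference was 0.40 ± 0.087 (adjusted p = 0.0146, edgeR). Ly6c2, the Ly6C surface antigen of inflammatory monocytes, had 5.44, 5.30, 5.67, 4.68 and 4.13 CPM in WT and 9.77, 6.48, 6.34 and 7.50 CPM in CD5L KO kidneys, again without overlap. Its log2 fold change was 0.57 ± 0.16 (adjusted p = 0.0402, edgeR). Its near-identical neighbour Ly6c1, which endothelial cells also express, was higher as well (0.32, adjusted p = 0.0291, edgeR), and reads shared by the pair may have been divided between them. Cd14, the lipopolysaccharide co-receptor of monocytes, which injured tubule can make too, had 112, 119.8, 112, 126 and 110.1 CPM in WT and 146, 128, 142 and 130.5 CPM in CD5L KO kidneys. The 8 injured tubule markers summed to 26829.8 to 33316 CPM in CD5L KO and 18969.7 to 25319.7 CPM in WT kidneys, and their part in the result was not tested. No CD5L KO kidney fell within the WT range for Cd14, and the log2 fold change was 0.23 ± 0.061 (adjusted p = 0.0309, edgeR). The fourth gene of this group, Lyz2, did not pass (0.27 ± 0.14, adjusted p = 0.251, edgeR), and 2 of 4 CD5L KO kidneys were above all WT kidneys. Lyz2 may share reads with the similar gene Lyz1.

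**Figure D3:**
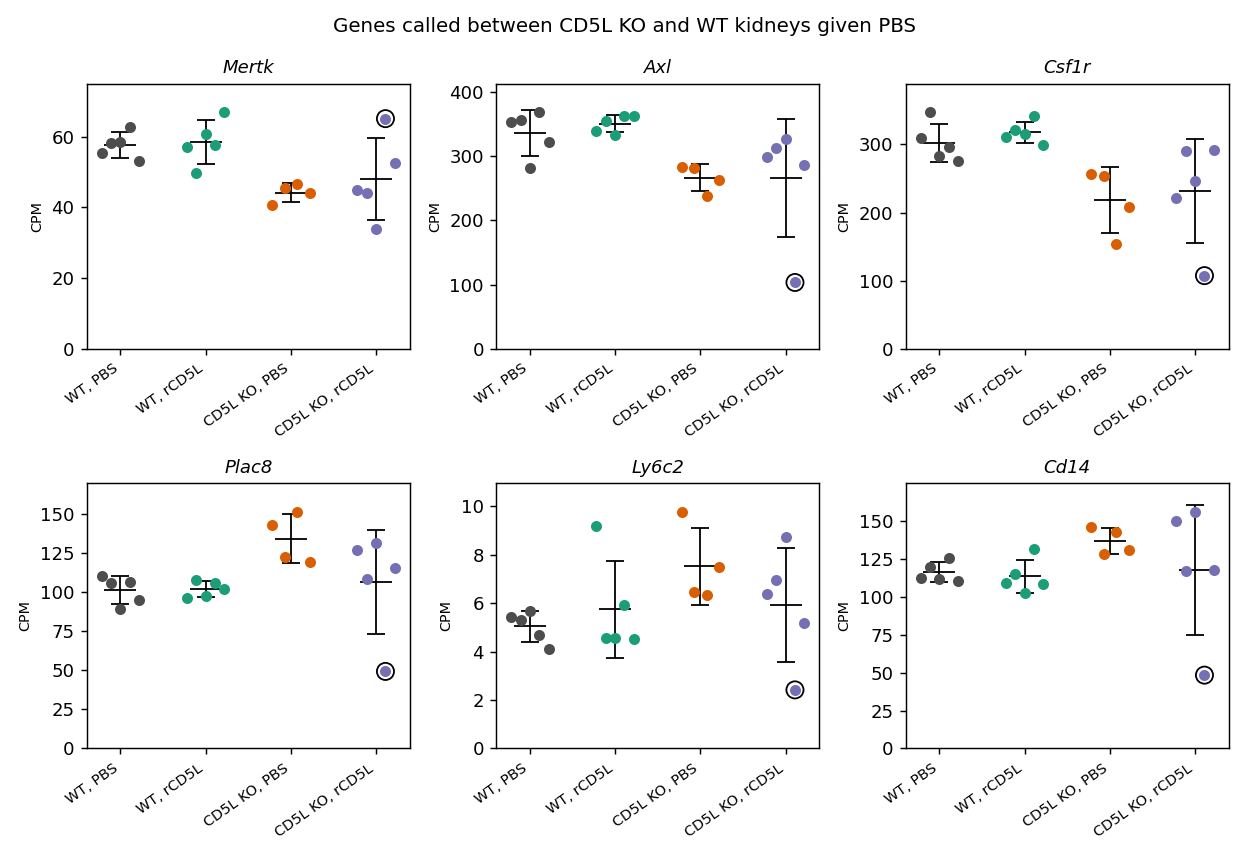
CPM of Mertk, Axl, Csf1r, Plac8, Ly6c2 and Cd14 (vertical axes, from 0) in each of 19 kidneys by group, with mean and SD. In the PBS groups the CD5L KO kidneys do not overlap the WT kidneys except for Axl. The circled point is replicate 4 of the CD5L KO kidneys given rCD5L, which is the lowest of its group for each of these genes but Mertk.

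Genes whose 2 PBS groups did not overlap were 5 of these 43 (Mertk, Csf1r, Plac8, Ly6c2 and Cd14), and 14.1% of all genes tested. The calls differed in how they depended on single kidneys and on settings. Mertk and Plac8 passed in each of the 9 fits that left out 1 kidney. Axl no longer passed without CD5L KO replicate 3 or 4 or without WT replicate 2 or 4, and Csf1r without CD5L KO replicate 3 or 4 or without WT replicate 1, 2, 4 or 5. Cd14 was lost without CD5L KO replicate 1 or 3 or WT replicate 1, 2 or 5, and Ly6c2 in all of these fits except those without CD5L KO replicate 3 or WT replicate 3. With all 19 kidneys in 1 fit, in which the spread of CD5L KO kidneys given rCD5L enters the error, 0 of these genes and 12 of 18454 genes passed (5 and 2115 at an unadjusted p under 0.05). Without replicates 3 and 4 of that group, the fit of all groups gave 2291 of 18724 genes (12.2%) and 5 of 44 members: Mertk, Axl, Csf1r, Plac8 and Ncf4.

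Gene length moved with the fold changes. Across the 17579 genes tested, shorter genes were higher in CD5L KO kidneys and longer genes lower (Spearman's rho = -0.28, over genes that are not independent of each other). Genes within 0.1 log2 units of the length of Plac8 and Cd14 had medians of 0.10 and 0.11, and those near Mertk, Axl and Csf1r had medians of -0.03 each. For Ly6c2 the median was 0.02. With an offset that removes the length trend in each kidney (rho = 0.02), Mertk (-0.37, adjusted p = 0.00943, edgeR), Axl (-0.31, 0.0424) and Plac8 (0.30, 0.0497) still passed. Csf1r (adjusted p = 0.0599), Ly6c2 (0.0588) and Cd14 (0.227) did not, and Cd68 did (-0.39, 0.0428). This offset left 7.42% of all genes called.

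**Figure D4:**
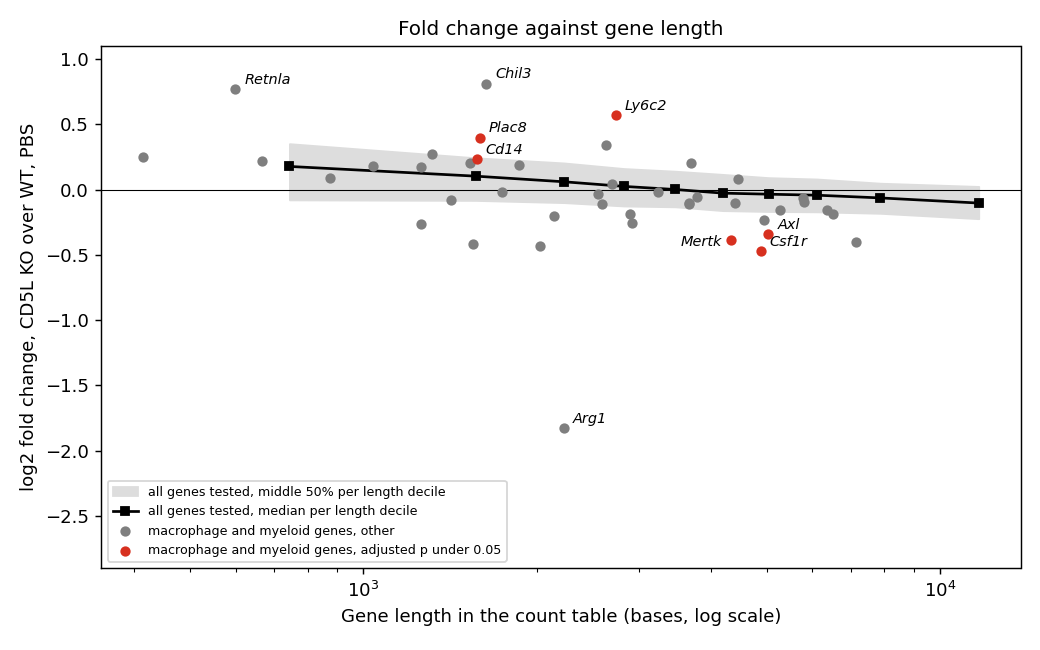
Log2 fold change in CD5L KO over WT kidneys given PBS (vertical axis) against gene length in bases (horizontal log axis). Black squares and the grey band are the median and the range from the lower to the upper quartile of all genes in classes of gene length, with medians from 0.18 in the shortest class to -0.10 in the longest. Dots are the 43 macrophage and myeloid genes, and of the 6 called genes (red) only Cd14 lies within the band, near its upper edge.

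The start regions of 4 of the 6 called genes are shown because PU.1, the product of Spi1, is the factor best known for myeloid gene control and binds purine-rich sites with the core GAGGAA. Those of Csf1r and Cd14 are not shown, so the windows do not compare higher with lower genes. The windows run from 250 bases before to 50 bases after the start of a RefSeq transcript (GRCm38.p6), in the direction of the gene. Positions are counted from the start as 0. Capitals mark GAGGAA or its reverse complement TTCCTC. The 2 windows that follow belong to receptors that were lower in CD5L KO kidneys, Mertk at chr2:128698665-128698964 (plus strand) and Axl at chr7:25788684-25788983 (minus strand).
Mertk: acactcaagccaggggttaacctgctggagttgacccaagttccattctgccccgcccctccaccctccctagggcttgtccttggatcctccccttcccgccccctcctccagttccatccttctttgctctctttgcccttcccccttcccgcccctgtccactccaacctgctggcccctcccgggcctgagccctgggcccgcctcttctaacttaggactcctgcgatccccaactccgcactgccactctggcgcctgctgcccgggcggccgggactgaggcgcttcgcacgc
Axl: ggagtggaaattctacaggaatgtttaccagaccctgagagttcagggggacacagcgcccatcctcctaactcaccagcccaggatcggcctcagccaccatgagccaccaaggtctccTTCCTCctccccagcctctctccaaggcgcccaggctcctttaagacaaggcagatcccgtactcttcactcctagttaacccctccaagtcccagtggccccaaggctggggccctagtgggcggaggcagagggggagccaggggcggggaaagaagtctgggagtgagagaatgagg
The Mertk window held no core, and the Axl window held 1, at -130 from the start.

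The other 2 windows belong to monocyte genes that were higher, Plac8 at chr5:100572156-100572455 and Ly6c2 at chr15:75111922-75112221 (both minus strand).
Plac8: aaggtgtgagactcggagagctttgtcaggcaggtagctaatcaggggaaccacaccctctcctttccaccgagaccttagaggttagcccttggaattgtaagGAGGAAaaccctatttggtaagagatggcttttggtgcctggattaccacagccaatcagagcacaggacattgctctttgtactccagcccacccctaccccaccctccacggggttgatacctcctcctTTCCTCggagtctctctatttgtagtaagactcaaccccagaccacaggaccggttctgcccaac
Ly6c2: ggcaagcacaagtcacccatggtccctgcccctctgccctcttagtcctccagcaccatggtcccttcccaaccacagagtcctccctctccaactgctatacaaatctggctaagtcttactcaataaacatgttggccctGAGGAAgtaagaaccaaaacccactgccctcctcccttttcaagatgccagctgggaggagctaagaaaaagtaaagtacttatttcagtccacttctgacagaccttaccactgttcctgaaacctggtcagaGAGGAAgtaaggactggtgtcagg
Plac8 held the core at -146 and -15, and Ly6c2 at -108 and 26. A second listed Plac8 window, at chr5:100563047-100563346, held no core. A second Ly6c2 window, which overlaps the first, held the same 2 cores, at -142 and -8 from its own start. Windows were listed for 32 of the 46 genes, and 17 of these held the core in at least 1 window. Overlapping windows, such as those of Ly6c2, were each counted in what follows. By window, 21 of 40 (52.5%) held it, against 28.3% of 32851 windows of all genes. This describes the letters in these windows and not the binding of a factor.

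The remaining role groups held no call in this comparison of genotypes. Among 6 resident and perivascular genes tested, 5 had a log2 fold change below 0, with a median of -0.22. Siglec1, the sialoadhesin CD169, had -0.40 ± 0.21 (adjusted p = 0.251, edgeR), and Folr2, a folate receptor of perivascular macrophages, had -0.42 ± 0.26 (0.332). Mrc1, the mannose receptor CD206, had 124 ± 30.3 CPM (SD, n = 4) and 138 ± 12.7 CPM (SD, n = 5), and Lyve1, Clec10a and Ms4a7 had adjusted p-values between 0.409 and 0.836. Exons of Folr2 overlap Gm10602 on the other strand.

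Of the lipid and engulfment genes besides Mertk and Axl, Lgals3, the carbohydrate-binding galectin-3, had 0.19 ± 0.080 (adjusted p = 0.154, edgeR). Apoe had 2608 ± 542 CPM (SD, n = 4) and 2987 ± 424 CPM (SD, n = 5), and Trem2, the lipid-sensing receptor of macrophages, 24.2 ± 5.94 and 28.3 ± 6.997 CPM. The 6 Fc receptor and adaptor genes split evenly, 3 above and 3 below 0, and the lowest unadjusted p was that of Tyrobp, the DAP12 adaptor (0.22 ± 0.10, adjusted p = 0.171, edgeR). With the length offset, Tyrobp had 0.04 (adjusted p = 0.844, edgeR). The Fc gamma receptors Fcgr1, Fcgr2b, Fcgr3 and Fcgr4 had adjusted p-values from 0.408 to 0.92. Of the fungal glucan receptors, Clec7a (dectin-1) had 0.34 ± 0.18 (0.258) and Clec4n (dectin-2) an adjusted p of 0.849. Clec7a is listed in the files as a polymorphic pseudogene, although mice of this strain make the protein.

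The NADPH oxidase makes superoxide in phagocytes. Its membrane chain Cyba had 0.18 ± 0.060 (adjusted p = 0.0824, edgeR) and its cytosolic partner Ncf4, or p40phox, had -0.43 ± 0.15 (0.0806), so the pair lay on opposite sides of 0. DESeq2 called both (0.034 and 0.0339). With the length offset, Cyba had 0.03 (adjusted p = 0.782, edgeR) and Ncf4 -0.50 (0.0547). Over the 19 kidneys, Cyba ran against the mean of the other members (Spearman's rho = -0.36). Replicate 4 of the CD5L KO kidneys given rCD5L, low for most members, had 510 CPM of Cyba, 1.62 times the median of the other 4. Which cells made the Cyba RNA was not tested. The catalytic chain Cybb had 77.9 ± 18.4 CPM (SD, n = 4) and 83.1 ± 12.1 CPM (SD, n = 5), and Ncf1 an adjusted p of 0.592. The costimulatory ligands Cd80 and Cd86 had adjusted p-values of 0.586 and 0.562. With DESeq2, 8 of the 41 members that had an adjusted p passed, and 17.8% of all genes that had one.

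Of the polarization genes, Arg1, the arginase of alternatively activated macrophages, had 4.82, 17.4, 1.52, 30.3 and 3.48 CPM in WT kidneys and 4.70, 4.17, 1.83 and 2.13 CPM in CD5L KO kidneys, both given PBS. WT replicates 2 and 4 held the high values, and the groups overlapped. On the log2 scale, the difference was -1.83 ± 0.72 (adjusted p = 0.129, edgeR). The 11 neutrophil markers summed to 52.5 and 75.5 CPM in these 2 WT kidneys, and to at most 36.9 CPM in any other of the 19 kidneys. Their part in the values of Arg1 and Chil3 was not tested. Chil3 and Retnla had 0.81 ± 0.43 (adjusted p = 0.257, edgeR) and 0.77 ± 0.47 (0.325). Nos2, the inducible nitric oxide synthase of classical activation, had 4.36 ± 0.282 CPM (SD, n = 4) and 4.64 ± 1.06 CPM (SD, n = 5). Arg1 passed without WT replicate 3 and Chil3 without WT replicate 4, and in no other fit that left out 1 kidney.

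Wider lists of the same pathways, written with earlier results known, gave the following counts in the comparison of PBS kidneys, against 10.5% called over all genes. Of 16 monocyte genes, 4 were higher (Plac8, Ly6c2, Cd14 and the chemokine receptor gene Ccr2) and 4 lower (Nr4a1, Vcan, Thbs1 and Fn1). With the length offset, 2 were higher and 2 lower, and Nr4a1 (adjusted p = 0.0546, edgeR) and Vcan (0.0555) no longer passed. Nr4a1, a factor of patrolling monocytes that many cells induce early, had -0.75 (adjusted p = 0.0445, edgeR), and the matrix genes Vcan and Thbs1 had -0.73 (0.0274) and -0.65 (0.00497). Vcan, Thbs1 and Fn1 are made by fibroblasts as well, and 4 of 8 fibroblast and myofibroblast markers (Acta2, Col1a1, Pdgfra and Pdgfrb) were lower too. The 8 summed to 1542 to 2190.0 CPM in CD5L KO and 2027 to 2969.9 CPM in WT kidneys, and their part in the result was not tested.

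Among 13 tested genes of TAM receptors, ligands and engulfment, 5 were lower and 1 higher. Besides Mertk and Axl, these were Stab1, a scavenger receptor of macrophages and endothelium (-0.61, adjusted p = 0.00721, edgeR), Mfge8, the bridge from phosphatidylserine to integrins (-0.33, 0.0131), and Itgb5, with the fatty acid scavenger Cd36 on the higher side (0.42, 0.0191). The part of the fibroblast and myofibroblast markers above in the values of Axl, Mfge8 and Itgb5 was not tested. Of 17 lipid-associated macrophage genes, 5 were higher and 0 lower: Spp1 (0.51, 0.0143), Fabp4 (0.49, 0.0338), Cd63 (0.28, 0.0113), Ctsl and Plin2. By sign alone, 10 of the 17 were above 0 and 7 below, and Trem2 (-0.23) and Gpnmb (-0.19) were among those below. Which cells made the RNA of Cd63, Ctsl and Plin2 was not tested. Spp1 encodes osteopontin, which injured tubule also makes, and it is 1 of the 8 injured tubule markers summed above. With the length offset, 4 of these 17 genes were higher and 0 lower. The 6 adipocyte markers summed to 66.9 to 209 CPM in CD5L KO and 35.1 to 179 CPM in WT kidneys. All 6 had log2 fold changes above 0, and 0 of them passed. Their part in the value of Fabp4 was not tested.

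Nox4, the tubular oxidase (0.36, adjusted p = 0.0234, edgeR), was the only call among 9 oxidase genes and partners, and 0 of 16 Fc receptor genes and adaptors passed. Of 12 colony stimulating factors and receptors, Csf1r and the stem cell factor receptor gene Kit were lower (-0.36 for Kit, 0.00728). Of 18 myeloid transcription factors, Nr4a1 and Bhlhe40 were lower (-0.29 for Bhlhe40, 0.0296). Neither passed with the length offset (0.0546 and 0.0526), which gave 0 lower and 1 higher in this list. Stab1 was the only call among 16 genes of complement C1q and other resident macrophage products. Il4ra, which carries the IL-4 signal, was lower (-0.32, 0.0169) among 19 tested genes of alternative and classical activation. Markers of macrophages were also taken from the single-cell work on this model. Of 59 such genes, 6 were lower and 1 higher, and with the length offset 3 were lower and 1 higher. The lower genes included Csf1r, Inpp5d, a lipid phosphatase of blood cells (-0.66, 0.0047), and Ssh2 (-0.44, 0.00659), and the higher gene was Arhgap15 (0.38, 0.0351).

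The second comparison asked what rCD5L does in mice without CD5L. No gene passed the adjusted threshold. With edgeR, 0 of 17467 genes and 0 of the 44 tested here passed (background 0%), and 502 (2.87%) and 2 had an unadjusted p under 0.05. DESeq2 called 3 genes (0.00973%), 1 of them Chil3. The median log2 fold change of the 44 genes was -0.17, and it was -0.003 without replicate 4, against 0.02 over all genes. The genes described next are the 5 of lowest p, and other genes of the same roles had other patterns. Mrc1 had 149, 138, 80.5 and 129 CPM with PBS and 124, 161, 59.02, 33.3 and 148 CPM with rCD5L, with 2 of 5 below and 1 above all given PBS. For Ms4a7, 2 of 5 kidneys given rCD5L were below all given PBS and 0 above, and the adjusted p-values of Mrc1, Ms4a7, Lyve1, Clec10a and Siglec1 were 0.9 to 0.971 (edgeR).

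Chil3 encodes Ym1, a chitinase-like protein of IL-4-exposed macrophages and of neutrophils. The CD5L KO kidneys given PBS had 2.13, 2.56, 3.04 and 2.29 CPM and those given rCD5L had 35.3, 3.71, 26.9, 10.6 and 3.78 CPM. All 5 kidneys given rCD5L were above all 4 given PBS, 2 of them only slightly. In log2 terms this was a change of 2.69 ± 0.68 (adjusted p = 0.897, edgeR), and 2.51 without replicates 3 and 4 (adjusted p = 0.397). It was the only one of the 44 genes without overlap, against 2.34% of all genes tested. The similar gene Chil4 may share reads with it. The 11 neutrophil markers summed to 28.1 to 33.2 CPM with PBS and 9.31 to 35.2 CPM with rCD5L in CD5L KO kidneys, and their part in the result was not tested.

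Retnla, the resistin-like protein RELMα, had 23.8, 21.6, 6.90 and 24.99 CPM with PBS and 87.3, 94.99, 47.2, 4.84 and 32.2 CPM with rCD5L. Replicate 4 was the lowest of these 9 kidneys, and the 4 others given rCD5L were above all given PBS. The fitted log2 difference was 1.47 ± 0.67 (adjusted p = 0.897, edgeR), and 1.89 without replicates 3 and 4 (adjusted p = 0.357). Folr2 had 0.950, 1.17, 0.964 and 0.937 CPM with PBS and 1.20, 2.28, 2.55, 0.733 and 1.89 CPM with rCD5L. Again 4 of 5 were above all given PBS and replicate 4 was below all. Its log2 fold change was 0.80 ± 0.36 (adjusted p = 0.897, edgeR). Without replicates 3 and 4 the log2 fold change of Folr2 was 0.83, that of Cd209f 1.49 and that of Gpnmb -1.25. The value of Gpnmb was -0.38 without CD5L KO PBS replicate 4.

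Cd209f, a SIGN-related lectin, had 0.452, 0.478, 0.0507 and 0.364 CPM with PBS and 0.979, 1.25, 1.13, 0 and 0.659 CPM with rCD5L, where 4 kidneys were above all given PBS and replicate 4 had 0 counts, which allows up to 3. On the log2 scale, the difference was 1.27 ± 0.73 (adjusted p = 0.897, edgeR). Gpnmb, a lysosomal glycoprotein of lipid-laden macrophages, had 13.5, 18.04, 9.23 and 54.6 CPM with PBS and 17.5, 6.76, 20.4, 1.76 and 5.45 CPM with rCD5L. Replicate 4 with PBS was the highest, and replicates 2, 4 and 5 with rCD5L were below all given PBS. In log2 terms this was a change of -1.19 ± 0.67 (adjusted p = 0.897, edgeR).

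The 6 genes called between genotypes did not pass in this comparison, with unadjusted p-values between 0.206 and 0.985 (edgeR). Mertk in CD5L KO kidneys given rCD5L had 44.99, 44.1, 33.9, 65.1 and 52.5 CPM, and replicate 4 had the highest value. Axl had 299, 313, 327, 103 and 287 CPM, and the 4 kidneys other than replicate 4 were above all 4 given PBS. Csf1r had 221, 291, 247, 107 and 292 CPM. Plac8 had 127, 109, 131, 49.3 and 116 CPM, Ly6c2 had 6.36, 6.94, 8.73, 2.42 and 5.19 CPM and Cd14 had 149.8, 117, 156, 48.3 and 117 CPM. Plac8, Ly6c2 and Cd14 overlapped the kidneys given PBS, with replicate 4 below them all.

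**Figure D5:**
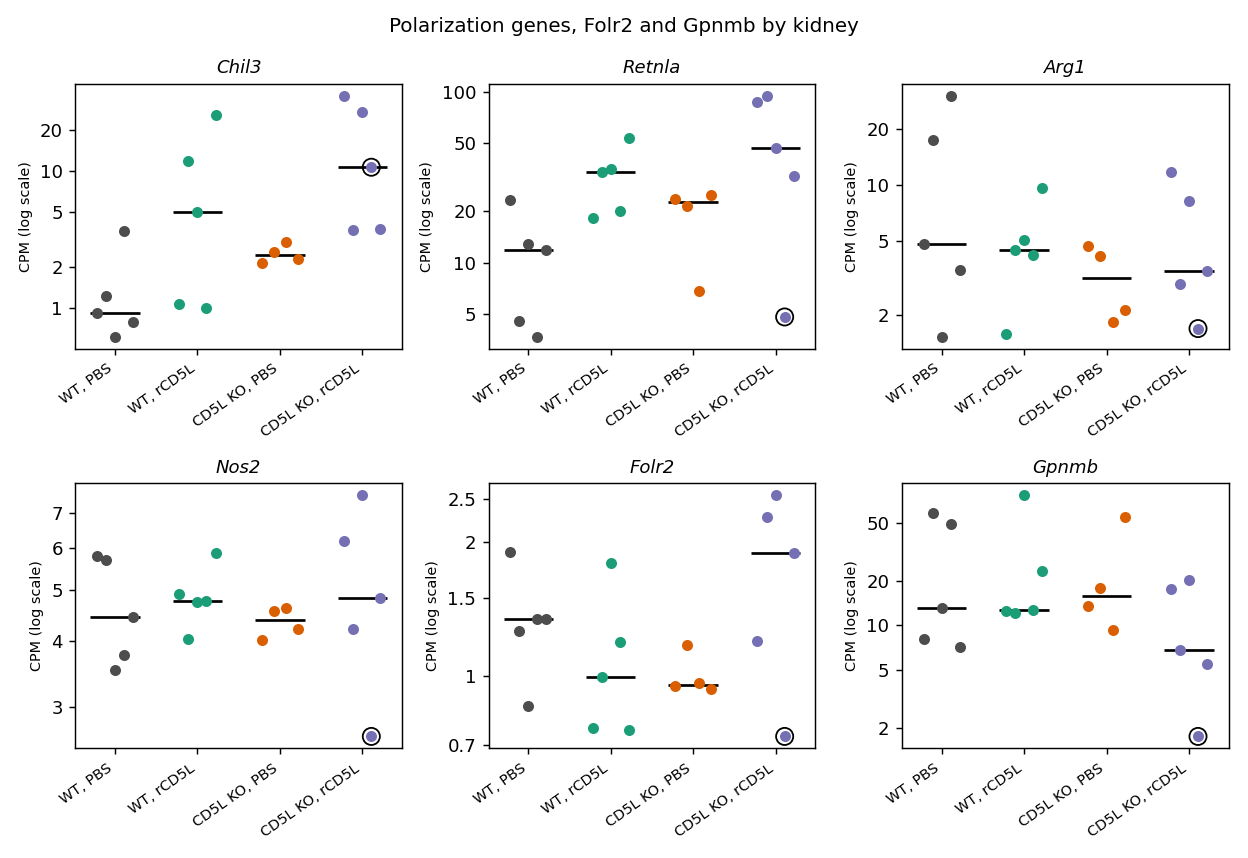
CPM of Chil3, Retnla, Arg1, Nos2, Folr2 and Gpnmb (vertical log axes) in each of 19 kidneys by group, with the median as a line. Chil3 and Retnla have higher medians with rCD5L than with PBS in both genotypes. The circled point is replicate 4 of the CD5L KO kidneys given rCD5L.

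The third comparison was rCD5L against PBS in WT mice. Retnla and Chil3 again had the largest positive fold changes, and several macrophage genes had small ones, but 0 of 17455 genes and 0 of the 43 tested here passed with edgeR (background 0%). At an unadjusted p under 0.05 there were 2797 genes (16%) and 8 of these genes, 7 higher and 1 lower, against 8.31% and 7.71% of all genes. DESeq2 called 508 genes (3.82%), 1 of them Laptm5. Without the filter on low counts, edgeR called 137 of 31830 genes (0.43%) and 2 of 46 members, Chil3 and Retnla. The median log2 fold change of the 43 genes was 0.05, against 0.005 over all genes. Fold change increased with gene length across all genes tested in this comparison (rho = 0.24, and -0.01 with the length offset).

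Retnla had 23.2, 4.59, 12.9, 3.71 and 11.9 CPM with PBS and 18.3, 33.96, 35.6, 20.1 and 53.8 CPM with rCD5L. Here 3 of 5 kidneys given rCD5L were above all given PBS. The fitted log2 difference was 1.53 ± 0.41 (adjusted p = 0.121, edgeR). Chil3 had 0.929, 1.22, 0.619, 3.66 and 0.788 CPM with PBS and 1.07, 11.8, 5.001, 0.993 and 25.4 CPM with rCD5L. Its 3 highest kidneys, replicates 2, 3 and 5, carried the difference, and the other 2 lay among those given PBS. Its log2 fold change was 2.67 ± 0.79 (adjusted p = 0.134, edgeR). Without WT rCD5L replicate 5 it was 1.74. The 11 neutrophil markers summed to 24.3 to 75.5 CPM with PBS and 30.9 to 36.9 CPM with rCD5L in WT kidneys. Their part in the values of Chil3 was not tested. The comparisons in WT and CD5L KO mice share no kidney.

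Laptm5, a lysosomal membrane protein of blood cells, had 136, 148, 122, 131 and 116 CPM with PBS and 140.3, 159, 139, 159 and 165 CPM with rCD5L in WT kidneys. On the log2 scale, the difference was 0.24 ± 0.069 (adjusted p = 0.132, edgeR), and 3 of 5 were above all given PBS. Csf1 had 63.4, 72.4, 57.2, 67.9 and 62.2 CPM with PBS and 66.02, 70.1, 80.3, 79.1 and 83.7 CPM with rCD5L, with a log2 fold change of 0.25 ± 0.075 (adjusted p = 0.144, edgeR). Replicates 3, 4 and 5 given rCD5L were above all given PBS. Mrc1 had 142, 154, 119, 139 and 137 CPM with PBS and 144, 164, 157, 171 and 151 CPM with rCD5L, and 0.20 ± 0.066 (adjusted p = 0.166). The groups of all 3 genes overlapped. The other genes with an unadjusted p under 0.05 were Siglec1 (0.46 ± 0.16, adjusted p = 0.181, edgeR), Spi1 (0.19 ± 0.080, 0.256) and, on the lower side, Trem2 (-0.32 ± 0.15, 0.309).

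The 6 genes called between genotypes had unadjusted p-values between 0.189 and 0.768 in WT mice (edgeR). Their WT levels with rCD5L were 58.5 ± 6.24 CPM for Mertk (SD, n = 5), 351 ± 13.7 for Axl, 318 ± 15.5 for Csf1r, 102 ± 5.03 for Plac8, 5.74 ± 2.001 for Ly6c2 and 113 ± 11.1 for Cd14. With PBS they were 57.6 ± 3.64, 336 ± 35.5, 302 ± 28.4, 101 ± 8.94, 5.04 ± 0.631 and 116 ± 6.61 CPM in the same order (SD, n = 5).

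Between CD5L KO and WT kidneys that both received rCD5L, 0 of 17360 genes and 0 of the 44 tested here passed with edgeR (background 0%), and 3090 (17.8%) and 2 had an unadjusted p under 0.05. DESeq2 called 64 genes (0.387%) and 0 of the 44. Mertk, Axl, Csf1r and Siglec1 were on the lower side in CD5L KO kidneys, as they were with PBS. Most of the list was on that side here, with 31 of the 44 genes below 0 and 13 above. The median log2 fold change of the 44 genes was -0.19, against -0.01 over all genes. It was between -0.28 and 0.01 in the fits that left out 1 kidney. Siglec1 had 21.2, 17.5, 22.4, 21.1 and 28.8 CPM in WT and 13.4, 15.1, 20.6, 4.84 and 16.3 CPM in CD5L KO kidneys, and 4 of 5 CD5L KO kidneys were below all WT kidneys. In log2 terms this was a change of -0.67 ± 0.29 (adjusted p = 0.267, edgeR). Axl had 339, 355, 333, 363 and 363 CPM in WT kidneys, above all 5 CD5L KO kidneys, as did Csf1r with 311, 321, 315, 341 and 299 CPM. The log2 fold changes were -0.41 ± 0.24 for Axl (adjusted p = 0.374, edgeR) and -0.46 ± 0.22 for Csf1r (0.288). These were the 2 genes without overlap among the 44, against 7.38% of all genes. Mertk had 57.2, 49.8, 60.8, 57.6 and 67.01 CPM in WT kidneys and -0.28 ± 0.17 (0.377), with 3 of 5 CD5L KO kidneys below all WT kidneys.

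Cyba had 246, 292, 254, 256 and 275 CPM in WT and 326, 273, 645, 510.2 and 303 CPM in CD5L KO kidneys given rCD5L, and replicates 3 and 4 of the latter stood far above the others. The fitted log2 difference was 0.64 ± 0.23 (adjusted p = 0.259, edgeR), and 0.17 without these 2 kidneys. Which cells made this RNA was not tested. Gpnmb, with 12.6, 12.2, 76.4, 12.8 and 23.4 CPM in WT kidneys, had -1.42 ± 0.67 (0.29), and Folr2 had 0.65 ± 0.37 (0.351). Without replicates 3 and 4 of the CD5L KO kidneys, 644 of 18012 genes passed (3.58%), and 2 of these genes were among them: Siglec1 (-0.58, adjusted p = 0.0424, edgeR) and Axl (-0.24, 0.0439). The values of Csf1r, Mertk, Gpnmb and Folr2 without these kidneys were -0.26, -0.32, -1.50 and 0.69. Gpnmb had -0.56 without WT rCD5L replicate 3. Without CD5L KO replicate 4 alone, Axl had -0.21, Csf1r -0.29 and Mertk -0.43, and without replicate 3 alone Mertk had -0.17. In the fit of all groups without both kidneys, 878 of 18724 genes passed (4.69%), and 1 of the 44 members, Mertk (-0.32, 0.0383).

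Whether rCD5L acted differently in the 2 genotypes was tested as an interaction over all 19 kidneys. With edgeR, 0 of 18454 genes and 0 of the 44 passed (background 0%), and 1154 (6.25%) and 1 had an unadjusted p under 0.05. DESeq2 called 0 genes. Folr2 had the lowest p of the 44: its log2 difference between the effect of rCD5L in CD5L KO and in WT mice was 1.09 ± 0.46 (adjusted p = 0.731, edgeR). In WT kidneys it had 1.90, 1.26, 0.857, 1.34 and 1.34 CPM with PBS and 0.767, 0.996, 1.80, 1.19 and 0.758 CPM with rCD5L, with 2 of 5 of the latter below all given PBS. Arg1 followed with 2.01 ± 0.98 (0.731). It had 1.58, 4.46, 5.09, 4.22 and 9.70 CPM in WT and 11.7, 2.93, 8.16, 1.69 and 3.43 CPM in CD5L KO kidneys given rCD5L, so its values were spread widely in each group. For Cyba, Cd209f and Lst1 the differences were 0.48 ± 0.26, 1.69 ± 0.99 and -0.40 ± 0.27 (adjusted p of 0.731 to 0.738, edgeR). The WT kidneys had 1.15, 0.547, 0.191, 0.215 and 0.324 CPM of Cd209f with PBS and 0.213, 0.105, 0.214, 0.795 and 0.519 CPM with rCD5L. Lst1, a small membrane protein of leukocytes, had 16.9, 12.1, 8.77 and 11.97 CPM with PBS and 10.6, 12.4, 9.72, 5.28 and 10.3 CPM with rCD5L in CD5L KO kidneys, and 12.7, 11.2, 10.1, 9.30 and 8.67 and 11.7, 12.5, 10.4, 10.3 and 9.18 CPM in WT kidneys. Cyba had 316, 293, 350.2 and 331 CPM in CD5L KO and 288, 276, 302, 276 and 278 CPM in WT kidneys given PBS. Without replicates 3 and 4 of the CD5L KO kidneys given rCD5L, the difference of Cyba was near 0, at -0.001, and those of Folr2, Arg1, Cd209f and Lst1 were 1.11, 2.08, 1.89 and -0.22.

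Over the 19 kidneys, Spearman's rho between a gene and the mean z-score of the others was 0.76 for Fcgr1, 0.74 for Cybb and Spi1, 0.71 for Clec7a and 0.70 for Lyz2, a description over kidneys of all 4 groups that includes replicate 4 of the CD5L KO kidneys given rCD5L. Without it, rho was 0.77, 0.79, 0.58, 0.75 and 0.68. Gas6 ran the other way (-0.53, and -0.54 without replicate 4), as did Cyba (-0.36, and -0.24 without it) and Mertk (-0.31, and -0.21 without it). Chil3, Ly6c2 and Gpnmb had values of 0.04, 0.16 and 0.16, and of 0.10, 0.0052 and 0.03 without it. Outside the list, genes among the 10 of 18454 most like the mean of the members were C3ar1, the receptor for the complement fragment C3a (0.83), Asf1b (0.82) and Me2 (0.82), over the same 19 kidneys.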

How the data were processed

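Per the labels and the study's methods, RNA from whole obstructed kidneys was sequenced as paired reads on NovaSeq, trimmed with Trimmomatic, aligned with HISAT2 to GRCm38 and counted with featureCounts. The authors deposited raw counts per gene and FPKM values, which are counts per length and library. Strand and multi-mapping settings are not given in the sources used here. The 46 genes and the lists were chosen with earlier results of these data known. Each comparison used only its own groups, and the interaction all 19 kidneys. Counts were filtered with filterByExpr (minimum count 10), TMM-scaled and tested with edgeR's (4.0.16, R 4.3.3) quasi-likelihood test, with Benjamini-Hochberg adjustment over all genes tested. Genes with an adjusted p under 0.05 are called. Values per kidney are given for genes called and for the 5 of lowest p in each comparison, and other members by summaries. Called genes of the wider lists are named for the 3 largest changes per list. Ccr2, Fn1, Itgb5, Ctsl, Plin2, Ly6c1 and the fibroblast markers fall outside this rule and were named after their values were seen. Alternatives were DESeq2 1.42.0, other scaling, no filter, limma 3.58.1 on log2(FPKM + 1) or log2(FPKM + 0.1), 1 fit of all kidneys, a replicate block, a length offset, and leaving out kidneys. Leaving out replicates 3 and 4 of the CD5L KO kidneys given rCD5L was chosen after seeing the data. The scripts were tested on simulated data. Separate mice are the replicates. Intervals of counts at 0 cover counting error only. Some items are not reported here.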

Additional observations from a re-analysis of the deposited data

Results flagged for a closer look

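Values were looked for that stood far from the other kidneys of their group of 4 or 5. There were 76 sets of values, each 1 quantity in 1 group. The quantities were the 18 genes called or among the 5 of lowest p in a comparison, and the median deviation of the members. Chance marks about 1 in 20 sets, but all sets come from the same 19 kidneys and are not independent. In CD5L KO kidneys given rCD5L, replicate 4 was far below the others for Csf1r (107 CPM), Csf1 (34.6 CPM), Lst1 (5.28 CPM), Axl (103 CPM), Plac8 (49.3 CPM) and Cd14 (48.3 CPM), and Cd209f had 0 CPM there. The median deviation of the 44 genes in the same kidney was -1.38 on the log2 scale, far from the other 4 kidneys.

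In CD5L KO kidneys given PBS, replicate 1 stood above the other 3 for Siglec1 (18.3 CPM), and replicate 2 stood above them for Folr2 (1.17 CPM). Replicate 3 was below the others for Cd209f (0.0507 CPM) and Retnla (6.90 CPM).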

How the results depend on the processing

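In the comparison of genotypes given PBS, 1850 genes and 6 of the members passed, and with all 19 kidneys in 1 fit 12 and 0 passed. Leaving out 1 kidney at a time gave 1015 to 2062 genes (5.81% to 11.8%) and 2 to 7 members. For rCD5L in CD5L KO mice, DESeq2 gave 3 genes and 1 member, and the fit of all groups without replicates 3 and 4 of the CD5L KO kidneys given rCD5L gave 2 genes. For rCD5L in WT mice, DESeq2 gave 508 genes (3.82%) and 1 member, and the table without a filter 137 genes (0.43%) and 2 members. Leaving out 1 kidney gave 0 to 39 genes, the 39 without WT PBS replicate 1. Between genotypes given rCD5L, DESeq2 gave 64 genes (0.387%), and all 19 kidneys in 1 fit 1291 genes (7%) and 1 member (Cyba). The comparison without replicates 3 and 4 gave 644 genes (3.58%) and 2 members, and all groups without them 878 genes (4.69%) and 1 member. Leaving out 1 kidney gave 0 to 1 genes. The interaction value of Cyba turned from 0.48 to -0.00115 without replicates 3 and 4. The cause of these shifts was not tested.

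Deviations of same-numbered kidneys were weakly correlated (r from -0.19 to 0.21). In both comparisons with CD5L KO kidneys given PBS, 2 of 4 kidneys were most like the kidney of their own number, and in the others 0 of 5. With so few kidneys, these values cannot decide whether the numbers pair them. With the replicate block, 2132 of 17579 genes (12.1%) and 9 of 43 members passed between genotypes given PBS. Of these members 2 were higher and 7 lower, and of these genes 1040 were higher and 1092 lower. Cd14 and Ly6c2 lost their calls, Mertk, Axl, Csf1r and Plac8 kept theirs, and Apoe, Cd68, Lyz2, Ncf4 and Trem2 gained one. In the other comparisons 0 members passed with the block.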
